A study of Mus musculus with 10 samples.

Results

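This account follows Zscan4a to Zscan4f, Tcstv1, Tcstv3 and Zfp352, 9 genes known from the mouse two-cell embryo, through the reprogramming of fibroblasts toward pluripotency. The members were taken by gene symbol from the transcript names, and 8 of the 9 were found among 45706 genes. Zscan4a was not analysed here, because neither its symbol nor its GENCODE M21 gene ID was among those names. The members were chosen by measured values of these same libraries, namely their levels over the 5 groups, so those levels are described without a test.

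RNA was sequenced from 5 groups of 2 libraries each. The starting cells were mouse embryonic fibroblasts (MEFs) of a C57BL/6 x 129 background with genotype OKSM Col1a1/M2rtTA ROSA26, kept in MEF medium without doxycyclin. The cassette at Col1a1 encodes Oct4, Klf4, Sox2 and Myc under control of the doxycycline-dependent transactivator M2rtTA at Rosa26. Cells of the same genotype were taken at day 3, day 6 and day 9 in ESC medium with 15% serum and LIF at 1000 U/ml. This medium also held doxycycline at 1 µg/ml and ascorbic acid at 50 µg/ml. The day 3 cells were the whole culture, and the day 6 and day 9 cells were sorted for the surface marker SSEA1. Embryonic stem cells (ESCs) were of a single line, V6.5, also labelled C57BL/6 x 129, without the cassette in their label. They were unsorted and grown on irradiated feeder cells in ESC medium with 15% serum and LIF at 1000 U/ml. The growth protocol records inhibitors of MEK and GSK3 for V6.5 cells of other assays and not for these libraries. The day 9 and ESC groups therefore differ in genotype, sorting and the doxycycline and ascorbic acid of the medium as well as in stage. Feeder cells are named above for the ESCs alone. Day 6 and day 3 differ in sorting as well as in stage, and day 3 and MEFs in medium and doxycycline. Within each of these steps the differences cannot be told apart.

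Zscan4 genes encode nuclear proteins with a SCAN domain and zinc fingers. In the embryo they are transcribed in a burst at the two-cell stage, when the zygotic genome is activated. In ESC cultures they are known from a small and changing subset of cells that resembles that stage, and Zscan4 is linked there to telomere lengthening and genome stability. The homeodomain factor Dux, with Dppa2 and Dppa4 upstream of it, is known to switch on this programme, while Trim28, Setdb1, the histone chaperone CAF-1 and other chromatin repressors hold it down. In bulk RNA, fewer cells of a kind and less RNA per cell cannot be told apart.

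Of the 9 members, 5 had a promoter window in the RefSeq table for GRCm38.p6, namely Zscan4b, Zscan4c, Zscan4d, Zscan4f and Zfp352. The stretches upstream of the Zscan4 copies are shown because they are nearly the same sequence, as are the transcripts that the reads had to tell apart. The Zscan4 stretches are of equal length, and each ends 20 bases after the letters TATAAA, 5′ to 3′ on the gene's strand. Capitals mark matches to TATAAA and to GATTNAAT on either strand. GATTNAAT is the inner part of the double homeodomain site known for Dux.
Zscan4b (chr7:10905056-10905220, minus strand): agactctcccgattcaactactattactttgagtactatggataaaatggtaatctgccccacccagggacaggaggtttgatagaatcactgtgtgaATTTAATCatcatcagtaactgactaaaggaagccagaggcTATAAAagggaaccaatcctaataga
Zscan4c (chr7:11005552-11005716, plus strand): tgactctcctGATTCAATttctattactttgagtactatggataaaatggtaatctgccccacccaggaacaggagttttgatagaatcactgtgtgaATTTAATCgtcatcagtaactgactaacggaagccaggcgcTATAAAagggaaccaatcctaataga
Zscan4d (chr7:11166188-11166352, minus strand): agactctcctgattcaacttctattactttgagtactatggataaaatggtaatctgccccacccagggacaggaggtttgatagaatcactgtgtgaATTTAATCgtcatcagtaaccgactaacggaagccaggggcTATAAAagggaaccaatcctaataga
Zscan4f (chr7:11397745-11397909, plus strand): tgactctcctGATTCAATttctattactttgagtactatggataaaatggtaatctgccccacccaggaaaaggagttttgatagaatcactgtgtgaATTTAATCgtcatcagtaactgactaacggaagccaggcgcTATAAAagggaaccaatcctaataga
Zfp352 (chr4:90218670-90218819, plus strand): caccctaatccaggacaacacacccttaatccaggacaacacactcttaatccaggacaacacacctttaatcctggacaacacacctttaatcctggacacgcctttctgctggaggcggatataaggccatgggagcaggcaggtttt

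Compared base by base with Zscan4f, the stretch of Zscan4c differed at 1 position, that of Zscan4d at 7 and that of Zscan4b at 11. All 4 Zscan4 stretches held TATAAA, which occurred in the 250 bases before the start in 12.37% of the 32851 windows in the table. All 4 also held GATTNAAT, a match found in 1.81% of the windows. Zscan4c and Zscan4f carried it at 2 places, and Zscan4b and Zscan4d at 1. The 250 bases before the start of Zfp352 held neither TATAAA nor GATTNAAT. Its most frequent run of 11 bases, GACAACACACC, recurred 8 times in these 250 bases and was found on either strand in 3 windows of the table, 0.009%. These motifs were chosen after the sequences had been seen, and a match is not evidence of binding.

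The Zscan4 copies lie in a cluster on chromosome 7 that spans 10794242 to 11614112 in GENCODE M21 (GRCm38), 819.9 kb. Zscan4b is at 10900740 to 10905050, Zscan4c at 11005745 to 11010547, Zscan4d at 11161374 to 11166159, Zscan4e at 11306378 to 11310682 and Zscan4f at 11397915 to 11402318. M21 places Zscan4a and 3 further copies, Zscan4-ps1, Zscan4-ps2 and Zscan4-ps3, in the same span. Tcstv1 and Tcstv3, whose names come from two-cell-stage variable transcripts, are on chromosome 13 at 119893388 to 119894785 and 120316878 to 120318178. Zfp352, a zinc finger gene, is on chromosome 4 at 90218820 to 90225702.

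The members were on in ESCs and at or near 0 in every other group. Summed over the 5 Zscan4 copies, the estimated reads were 0 and 3 in the MEF libraries, 1 and 1 at day 3, 1 and 1 at day 6, 2 and 1 at day 9, and 4754 and 5009 in ESCs. On the scale of CPM, counts scaled by library size and TMM factors, the sum reached 136.907 ± 4.452 (SD, n = 2) in ESCs, where the day 9 mean was 0.045 ± 0.028 (SD, n = 2). The family thus took 0.0152% and 0.0145% of all reads of the ESC libraries. The day 9 libraries, at 0.064 and 0.025 CPM, lay within the range of the MEF libraries, at 0 and 0.091 CPM.

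The ratio of ESC to the other groups rests on few reads in the denominator. For the Zscan4 sum it was 3058 over day 9, with a 95% counting interval (exact binomial, pooled reads) of 1103 to 15631. Over MEFs it was 2994 (934 to 13237), over day 3 4848 (1343 to 40078) and over day 6 4591 (1269 to 37878). These intervals overlap, so the data do not order the 4 groups. The intervals pool the reads of the 2 libraries of a group, so they cover counting error only and not the spread between libraries. The reads carry no molecular identifiers, so the counting error itself may be larger.

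**Figure D1:**
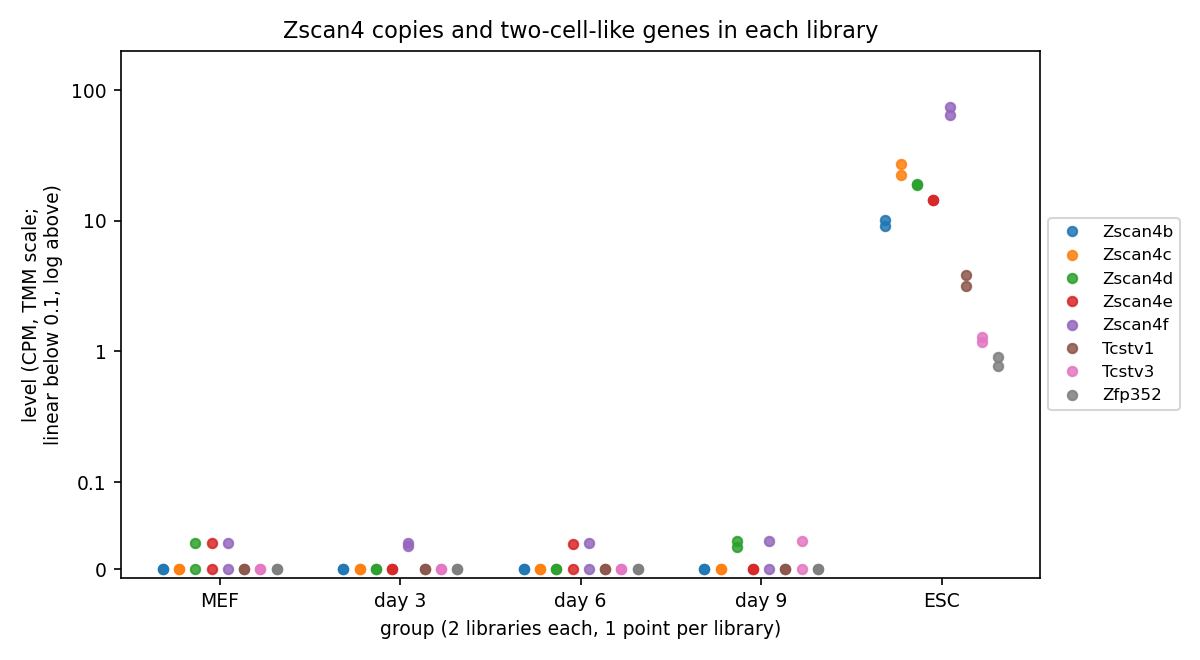
Level of each of the 8 members found in each of the 10 libraries, in CPM on an axis that is linear below 0.1 and logarithmic above, with 1 point per library. Every member has both ESC points above all points of the other groups, which lie at or below 0.032 CPM.

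Zscan4f had the highest level of the copies. It was at 2510.7 and 2412.1 estimated reads in the ESC libraries and at 0 or 1 read in each of the other 8. Zscan4c, the copy usually described as the main one in ESCs, had 762.6 and 1019.8 reads in ESCs and none in any other library. With a floor of 3 reads per library, its ESC level was at least 289-fold higher than at day 9 and at least 246-fold higher than in MEFs. Zscan4d, the copy known as the main one in the two-cell embryo, had 649.6 and 703.1 reads in ESCs. Outside ESCs it had 3 reads in all, 1 in an MEF library and 1 in each day 9 library.

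Zscan4e is listed as an unprocessed pseudogene in the deposited names and as protein-coding in M21. It had 486.4 and 535.4 reads in ESCs and 2 in the other 8 libraries together. Zscan4b had 344.7 and 338.6 reads in ESCs and none elsewhere, which puts it at least 111-fold higher in ESCs than at day 9.

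The genes outside the family followed the same on and off pattern at lower levels. Tcstv1 had 107.5 and 142.8 reads in the ESC libraries and none elsewhere, at least 41-fold higher than at day 9. Tcstv3 had 40.2 and 48.1 reads in ESCs and 1 read in day 9 replicate 1. Zfp352 had 26.2 and 33.9 reads in ESCs and none elsewhere, at least 10-fold higher than at day 9. For all 8 members both ESC libraries exceeded the other 8 libraries. Of all 45706 genes 12.6% had that order, but the members were chosen for it.

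Per length, on the TPM scale, the order in ESCs was led by Zscan4f at 27.872 ± 1.82 (SD, n = 2). Zscan4c at 5.862 ± 0.719 (SD, n = 2) and Zscan4e at 5.459 ± 0.081 (SD, n = 2) followed and overlapped, so their order is not resolved. Zscan4d stood at 5.218 ± 0.074 (SD, n = 2) and Zscan4b at 3.089 ± 0.293 (SD, n = 2). Tcstv1 at 2.58 ± 0.25 (SD, n = 2) and Tcstv3 at 2.288 ± 0.104 (SD, n = 2) followed. Zfp352 was lowest at 0.239 ± 0.046 (SD, n = 2). With 2 libraries a group, ranges that do not overlap are no test. The order follows the deposited gene names. Of Zscan4d, the transcript Zscan4d-002, which M21 gives to Zscan4-ps1, held 2.9028 and 2.0959 TPM, and Zscan4d-001 held 2.3669 and 2.7784. The place of Zscan4d above Zscan4b thus depends on the naming. Of the Zscan4f level, 8.7388 and 9.5487 TPM came from Zscan4f-003, a transcript of 521 bases with 6.58% and 8.41% of its reads.

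How the family's reads divide among the copies depends on short stretches of sequence. Among all M21 transcripts, 13.2% of the distinct 50-base windows of Zscan4f occurred in no other gene. The share was 14.5% for Zscan4c, 9.9% for Zscan4b and 50.4% for Zscan4d, with Zscan4e between Zscan4b and Zscan4f. For Zscan4c, Zscan4d and Zscan4e the M21 transcripts differ in length from the deposited ones, so these shares are approximate. The windows of Zscan4d come from 1 M21 transcript and leave out Zscan4d-002 and Zscan4d-003. It ran from 68.6% for Tcstv3 to 92.9% for Zfp352 among the genes outside the family. Reads were 50 nt long, the length of these windows, so the split among copies is uncertain and the family sum is the firmer value. Of the windows of Zscan4c 82.6%, and of those of Zscan4f 82.2%, also occurred in Zscan4a or a Zscan4-ps gene of M21. Zscan4-ps1 and Zscan4-ps2 each had 1 transcript among the deposited ones, under the name of another copy. Zscan4a and Zscan4-ps3 had none, and the share of windows found in these alone was not computed.

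The deposited gene names also differ from M21 within the family. The transcript Zscan4f-002, which M21 gives to Zscan4-ps2, held 18.7% and 20.09% of the Zscan4f reads in the ESC libraries. The transcript Zscan4d-002, which M21 gives to Zscan4-ps1, held 49.06% and 36.78% of the Zscan4d reads. As deposited, Zscan4f took 52.81% and 48.15% of the family's reads, Zscan4c 16.04% and 20.36%, and Zscan4d 13.66% and 14.04%. With each transcript under its M21 gene, Zscan4f took 42.9% and 38.5% and Zscan4d 7.0% and 8.7%, while Zscan4c kept 16.0% and 20.4%. Zscan4f led under both namings. The family sum is the same under both.

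**Figure D2:**
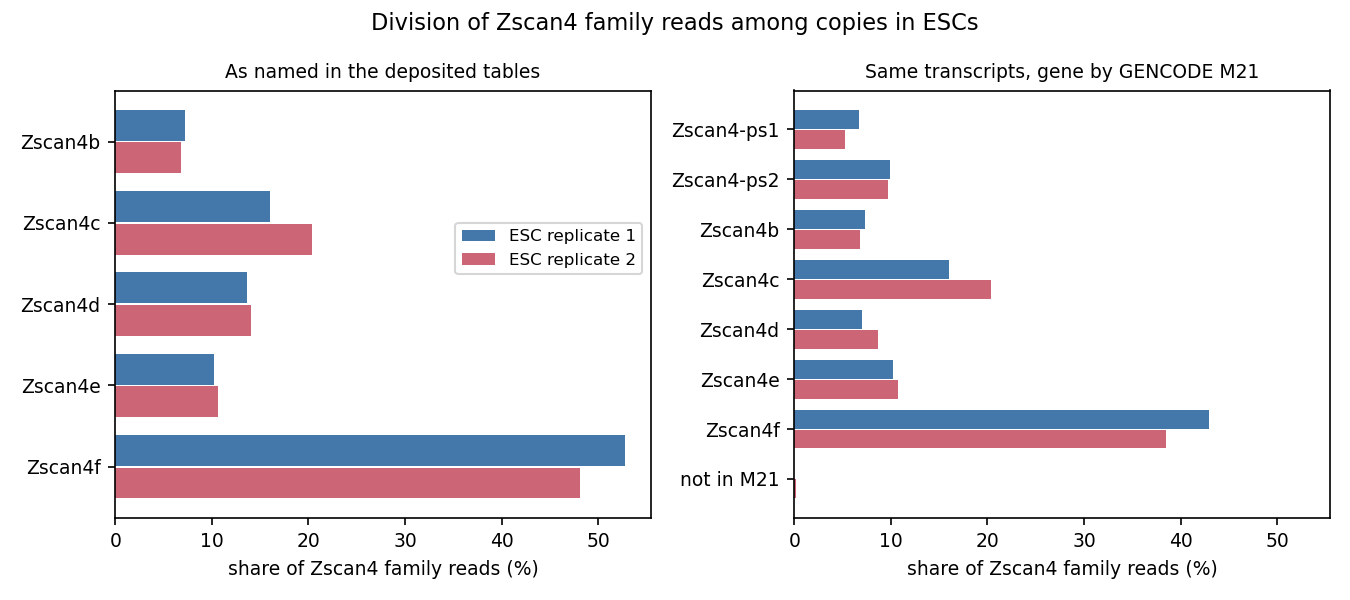
Share of the Zscan4 family's estimated reads assigned to each copy in the 2 ESC libraries, by the deposited gene names on the left and by the GENCODE M21 gene of the same transcripts on the right, in percent. Zscan4f falls from 52.81% and 48.15% to 42.9% and 38.5% when Zscan4f-002 is counted under Zscan4-ps2.

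The 2 ESC libraries held nearly the same amount of the family. The log2 ratio of replicate 2 to replicate 1 was -0.07 for the Zscan4 sum, with a 95% counting interval of -0.12 to -0.01. Single copies moved apart more than the sum, with 0.28 (0.14 to 0.41) for Zscan4c and -0.2 (-0.28 to -0.12) for Zscan4f, in opposite directions. Both lie outside the range from the 5th to the 95th percentile of -0.147 to 0.161 over the 10444 tested genes with 300 or more ESC reads on average. These copies share most of their 50-base windows with others, and the part of shared reads in these ratios was not tested. Tcstv1 at 0.27, Tcstv3 at 0.12 and Zfp352 at 0.23 had counting intervals that included 0.

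The next comparisons asked how other genes of the two-cell-like programme behaved, from lists of genes known from other work. The lists were chosen with earlier results of these data known. The target list named 43 further genes known from two-cell-like cells, of which 38 were in the files. In ESCs their summed level was 116.1 and 114.5 CPM, and in the other 8 libraries it lay between 0.553 and 2.67 CPM. The log2 ratio of the 2 ESC libraries was -0.02 for this sum, with a counting interval of -0.08 to 0.04. Of the 38 genes, 27 had no read (under 0.5 estimated reads) in any library outside ESCs, and 2 had none in any library. The share of all genes unread outside ESCs was not computed. By value, 35 had both ESC libraries above the other 8, an order found in 12.6% of all 45706 genes. Of the 35, 1 gene, Gm4340, is among the 2 without a read.

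Between day 9 and ESCs, all 29 target genes that passed the filter on low counts were called higher by edgeR (adjusted p under 0.05 and at least a 2-fold change), against 18.6% of all 20165 tested genes, with 32.9% called in either direction. This count, and the size of the change, carry no weight, because 27 of the 29 passed the filter only through the ESC libraries and so had to differ. Gm5662 was at 10.792 CPM in ESCs and unread at day 9, at least 125-fold higher. Gm2016 was at least 118-fold higher and Gm4027 at least 115-fold higher. Gm6763 was at 10.18 ± 1.17 CPM (SD, n = 2) in ESCs. The transmembrane protein gene Tmem92 was at 9.207 and 8.486 CPM. How much sequence the genes of this list share with close copies was not computed, so their single values are less certain than their sum.

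In the earlier steps few target genes were called. From MEF to day 3, none of the 29 rose and 2 fell, where 29.1% of all tested genes were called. Sp110, a nuclear body protein gene, fell by 2.58 on the log2 scale (SE 0.46, edgeR adjusted p 0.00019) from 0.8641 CPM in MEFs. Arg2, a mitochondrial arginase gene, fell by 2.35 (SE 0.8, edgeR adjusted p 0.019). This call was lost without MEF replicate 1 or D3 replicate 2, where the log2 values were -2.22 and -1.86. It was also lost with limma on log2(TPM + 1) and on log2(TPM + 0.1), at -0.13 and -0.84. No target gene was called at day 6 against day 3, where 19.5% of tested genes were called, or at day 9 against day 6, where 7.87% were. Outside ESCs, 27 of the 29 had 10 reads in fewer than 2 libraries. Arg2, with 34.0 estimated reads in those 8 libraries, was the 1 of these that was called, and for those without a read a change was not detectable at this depth.

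**Figure D3:**
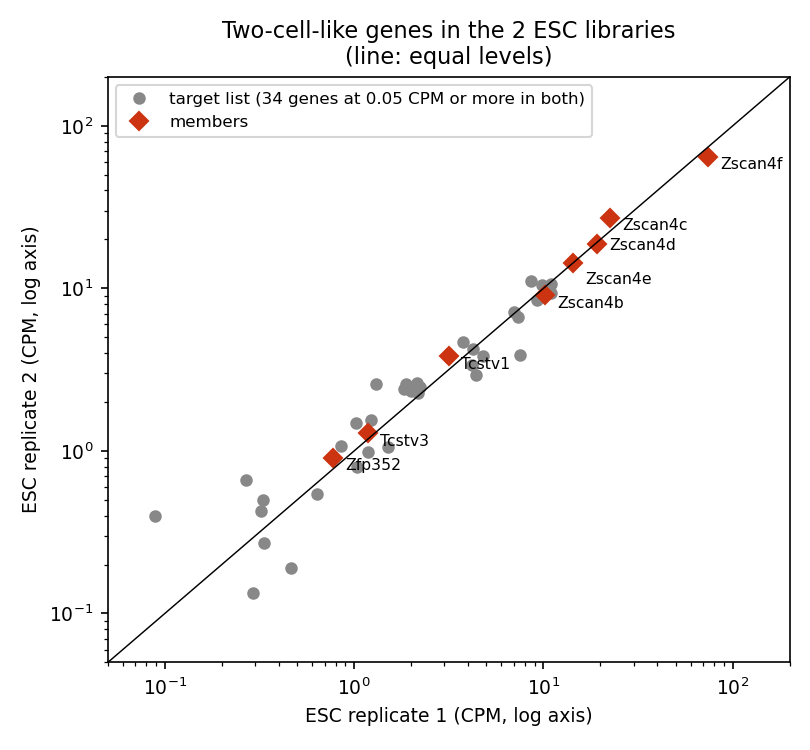
Level of each gene in ESC replicate 1 and ESC replicate 2 in CPM, both axes logarithmic, for the members (diamonds) and for the 34 target genes at 0.05 CPM or more in both libraries (circles). Zscan4f lies at 73.967 and 64.411 CPM and Zfp352 at 0.773 and 0.905 CPM, and the points scatter around the line of equal levels.

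Among the activators of the two-cell-like state, 8 of 10 genes in the files passed the filter, and 6 of these rose between day 9 and ESCs with none lower, where 18.6% of all tested genes rose and 14.3% fell. Of the 6, Duxf3 and Obox6 passed the filter only through the ESC libraries and so had to differ. Duxf3, the gene for Dux, is listed as a pseudogene in the deposited names and sits in a repeat array of close copies. It had no read in the 8 libraries outside ESCs and was at 0.6714 and 1.198 CPM in ESCs, at least 10.9-fold higher than at day 9. Its ESC replicates differed by a log2 ratio of 0.84 (counting interval 0.07 to 1.62). The call of Duxf3 was lost with DESeq2 (adjusted p 0.17) and with limma on log2(TPM + 1), where the log2 difference was 0.32.

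Dppa2 and Dppa4 encode partner proteins with a SAP domain. Dppa2 was at 139.0 and 129.9 CPM in ESCs after 1.048 and 0.6589 CPM at day 9, a log2 difference of 7.32 (SE 0.14, edgeR adjusted p 7.5e-15). Dppa4 was at 113.5 and 111.3 CPM in ESCs after 0.8214 and 1.119 CPM at day 9, a log2 difference of 6.82 (SE 0.12, edgeR adjusted p 2.5e-15). At day 9 against day 6, Dppa4 was higher by 5.74 (SE 0.66, edgeR adjusted p 1e-05). Its day 6 libraries were at 0 and 0.03025 CPM, so the size is uncertain: it was 4.87 without D6 replicate 1 and 8.08 without D6 replicate 2. With limma on log2(TPM + 1) it was 0.41, below the 2-fold bound. The rise of Dppa2 by 1.41 (SE 0.44, edgeR adjusted p 0.025) was lost without D6 replicate 1 and without D9 replicate 1, where the log2 values were 1.08 and 1.06. It was also lost with limma on log2(TPM + 1) and on log2(TPM + 0.1), where the values were 0.17 and 0.78.

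Dppa3, a maternal factor also called Stella, rose from day 6 to day 9 by 5.54 (SE 0.58, edgeR adjusted p 3.7e-06) and again from day 9 to ESCs by 2.57 (SE 0.27, edgeR adjusted p 1.2e-06). Its day 6 libraries were at 0.0588 and 0 CPM, so the size of the first rise is uncertain. In all, 3 of the 8 activators rose from day 6 to day 9, where 5.18% of tested genes rose and 2.68% fell. Tbx3, a T-box factor, fell from day 3 to day 6 by 2.28 on the log2 scale (SE 0.14, edgeR adjusted p 3.5e-09) and was 5.71 higher in ESCs than at day 9 (SE 0.11, edgeR adjusted p 1.2e-14). It was the 1 activator called at that step, where 10.2% of tested genes fell, and none was called from MEF to day 3. Nelfa, a subunit of the negative elongation factor, was at 28.01 CPM in MEFs and 63.17 CPM in ESCs and did not reach a 2-fold change in any step. The sixth activator called between day 9 and ESCs was Obox6, an oocyte-specific homeobox gene at 1.119 and 0.8278 CPM in ESCs.

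**Figure D4:**
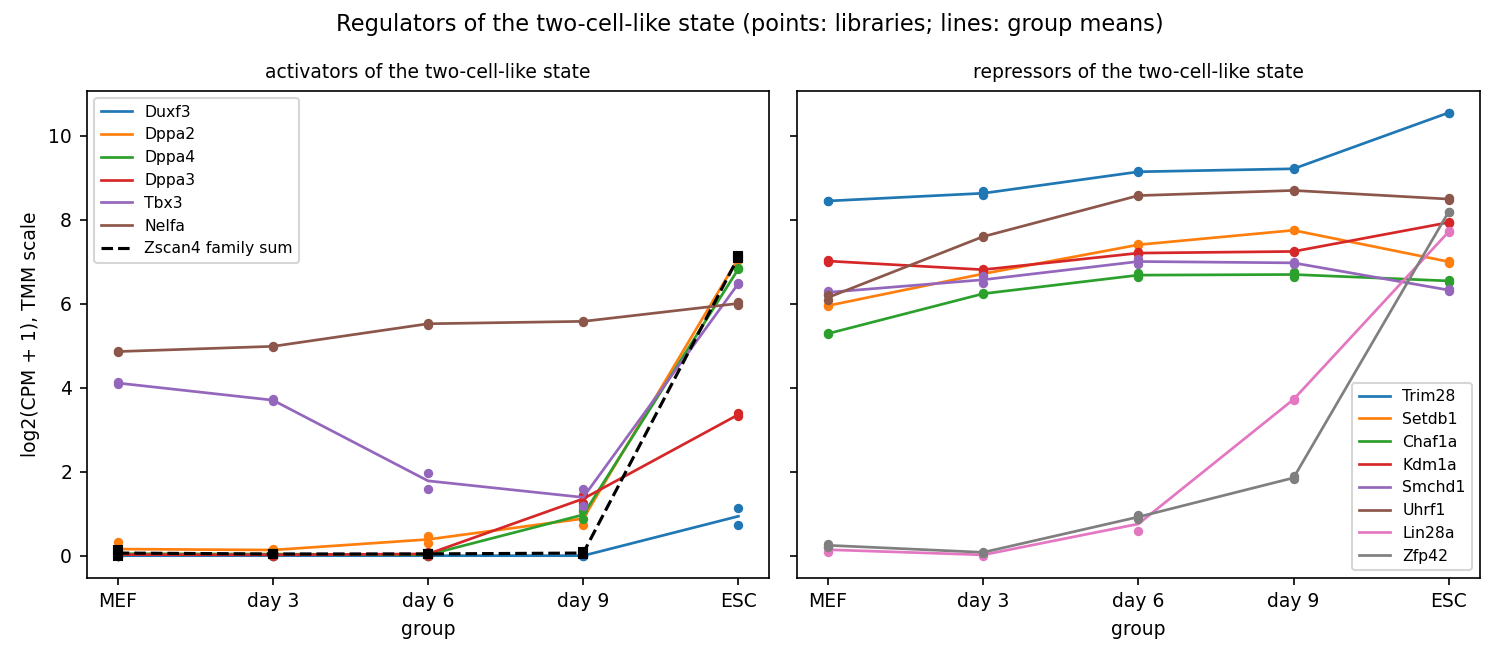
Levels of 6 activators (left, with the Zscan4 sum as a dashed line) and 8 repressors (right) of the two-cell-like state as log2(CPM + 1) by group, with points for libraries and lines through group means. At day 9 Dppa2 and Dppa4 are at 0.8536 and 0.9704 CPM and the Zscan4 sum at 0.045 CPM. The ESC means of Setdb1, Chaf1a, Smchd1 and Uhrf1 lie below those of day 9, and those of the other repressors shown lie above.

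All 23 repressors of the state were tested, and their summed level was 2411 and 2402 CPM in MEFs, 4790 and 4830 at day 9, and 7237 and 7244 in ESCs. Of this sum, Ncl made up 634.3 CPM in MEFs and 2079 CPM in ESCs, and Trim28 346.8 and 1492 CPM. In every library the sum lay far above that of the Zscan4 family, but a sum over 23 genes is no measure of repression. From MEF to day 3, 4 rose and 2 fell, where 14.6% of tested genes rose and 14.5% fell. No activator was called at this step, and the split over activators and repressors was 8 higher and 1 lower with library-size scaling and 3 higher and 3 lower with a filter of 10 CPM in 2 libraries. The rises included Uhrf1, a reader that recruits DNA methyltransferase, by 1.46 (SE 0.04, edgeR adjusted p 3.9e-13), and Chaf1b, a CAF-1 subunit, by 1.23 (SE 0.06, edgeR adjusted p 1.5e-10), besides Dnmt1 by 1.11 and Rif1 by 1.01. Rcor2, a corepressor partner of Kdm1a, fell by 2.46 on the log2 scale (SE 0.09, edgeR adjusted p 4.6e-12). Zfp42 fell by 1.64 (SE 0.55, edgeR adjusted p 0.047) from 0.187 CPM in MEFs. This call was lost without any 1 of the 4 libraries compared, where the log2 values ran from -1.91 to -1.38. It was also lost with DESeq2, no low-count filter, the fit to the 2 groups, library-size scaling and both limma settings. From day 3 to day 6, 4 of 23 rose, where 9.26% of tested genes did: Lin28a by 5.31, Zfp42 by 3.9, Rcor2 by 1.61 and Rif1 by 1.27. Lin28a was at 0.02692 and 0 CPM at day 3, so the size of its rise is uncertain. Lin28a and Zfp42 rose further up to day 9, by 4.11 and 1.54.

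Between day 9 and ESCs, 6 of the 23 repressors were called higher and none lower, where 18.6% of tested genes were called higher and 14.3% lower. Trim28, the corepressor that anchors silencing of endogenous retroviruses, went from 585.5 and 595.4 CPM to 1491 and 1492 CPM, a log2 difference of 1.34 (SE 0.03, edgeR adjusted p 8.9e-14). Zfp42, also called Rex1, was 6.8 higher, Lin28a, an RNA-binding protein, 4.1 higher, and Rcor2 2.69 higher. L3mbtl2 and Rybp, of a variant Polycomb complex, were the other two. Setdb1, the histone H3 lysine 9 methyltransferase that works with Trim28, had a log2 difference of -0.75, Smchd1 one of -0.65, Chaf1a one of -0.15 and Kdm1a one of 0.69, all within 2-fold and so not called, although their adjusted p-values by edgeR were under 0.05. E2f6, Ehmt1, Ehmt2, Dnmt1 and Uhrf1 were lower too, with log2 differences from -0.6 to -0.21, and were not called. The remaining uncalled repressors were higher, by up to 0.81 for Rif1, so the list was mixed in direction. The median over the 23 was 0.31, against 0.005 over all tested genes.

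Other genes of the SCAN zinc finger family were read in all groups. Of 15 tested, 1 had no read in MEFs and at day 3, and their summed level stayed between 265.4 and 375.5 CPM in all 10 libraries. Between day 9 and ESCs, 2 were called higher and 1 lower, that is no larger a share than the 18.6% and 14.3% of all tested genes. Zscan10, a pluripotency factor, rose at each step, by 2.58, 4.11, 1.51 and 1.37, and reached 91.58 CPM in ESCs. Zscan20 rose by 1.1 from MEF to day 3, and Zscan18 by 1.59 in the step after it. Zscan5b was 3.12 higher at day 9 than at day 6 (SE 1.03, edgeR adjusted p 0.036). This call was lost with the replicate block (edgeR adjusted p 0.054), the fit to the 2 groups (edgeR adjusted p 0.093) and DESeq2 (adjusted p 0.11). It was also lost with both limma settings, and without D6 replicate 1 or D9 replicate 1, where the log2 values were 2.25 and 2.5. Zscan5b was at 2.331 and 2.537 CPM in ESCs and 0.2274 and 0.1015 CPM at day 9, and it passed the filter only through the ESC libraries. Zkscan3 was lower in ESCs by a log2 difference of -1.3 (SE 0.05, edgeR adjusted p 7.5e-12).

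Of the 53 genes that M21 places in the Zscan4 span, 8 were in the files, and the 3 that are no members are miRNA genes, none of which reached 0.3 CPM in ESCs. What else the span transcribes is therefore not shown here, apart from the reads that M21 gives to Zscan4-ps1 and Zscan4-ps2. Between Tcstv1 and Tcstv3 on chromosome 13, 14 genes that are no members were in the files, and 7 of them were at 0.3 CPM or more in ESCs. Of these, 6 were under 0.1 CPM in every other library, among them Gm21761 at 7.039 CPM and Gm20767 at 4.237 CPM in ESCs. The exception was Gm20900, at 3.722 CPM in ESCs and up to 4.136 CPM outside. Gm21761, Gm20767, B020031M17Rik, Gm21818 and AF067061 are also on the target list described above, so of the 6 only BC147527 was not counted before. The bounds of 0.3 and 0.1 CPM were chosen after the values were seen, and the share of all genes within them was not computed.

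Likeness to the Zscan4 sum was measured as Pearson's correlation of log2(CPM + 1) over the 10 libraries, as a description. The 6 genes most like it were the pseudogenes Gm6673 and Gm6826, and Gm5662, Gm12800, Gm21293 and Gm8764, each at 0.9999. Gm21293 and Gm8764 had the same values to 4 digits in both ESC libraries, 8.346 and 8.128 CPM, so their reads were not told apart. Of 20157 genes that are no members, 485 had a correlation of at least 0.99. Such values follow from the on and off pattern, and the rank among these genes rests on small differences between the ESC replicates.

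Markers of other cells were read in the same libraries. The 10 fibroblast or feeder markers summed to 3856 and 3975 CPM in the ESC libraries, against 66.72 and 72.98 CPM at day 9 and 44390 and 42950 CPM in MEFs. The proteoglycan gene Lum was at 0.1768 and 0.5341 CPM in ESCs and without a read at day 9. Of the 10, 9 were called higher in ESCs than at day 9, where 18.6% of all tested genes were. The MEF libraries, where these markers were highest, held 3 reads of the Zscan4 family in all. No library of the irradiated feeder cells alone was among the groups, and the part of feeder RNA in the ESC values was not tested. The 8 pluripotent cell markers summed to 4995 and 5123 CPM in ESCs and to 844.4 and 860.1 CPM at day 9. Pou5f1, the gene for Oct4, and Sox2 are also encoded by the cassette. They were at 274.7 and 275.4 CPM at day 9 and at 1153 and 241.4 CPM in ESCs. The part of cassette RNA in the day 9 sum was not tested. Of the 8 markers, 7 were called higher in ESCs than at day 9, where 18.6% of all tested genes were. Zfp42 is on this list and among the repressors. The 6 primitive endoderm markers summed to 29.4 and 29.31 CPM in ESCs and 13.12 and 15.5 CPM at day 9, and the 6 trophoblast markers to 51.95 and 54.48 CPM and 201.6 and 213.1 CPM. Most of the trophoblast sum at day 9 was Krt8, at 148.9 CPM, and Tfap2c, at 48.28 CPM. The trophoblast markers were mixed in direction. Of 5 tested, 2 were called lower in ESCs than at day 9, Krt8 and Elf5, and 1 was called higher, Eomes. Of all tested genes 14.3% were called lower and 18.6% higher. Libraries held 29585876 to 38275024 estimated reads, so 3 reads stood for 0.0784 to 0.1014 CPM by library size.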

How the data were processed

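Poly(A) RNA was sequenced with a stranded kit as single reads of 50 nt, per the labels' protocols. The authors deposited 1 table per library with an estimated count and a TPM value for each of 109617 transcripts. Salmon 0.8.2 and mm10 are named in the submitters' processing notes; index and annotation release are not given in the sources used here. The TPM column was used as deposited, summed per gene. Counts were summed per gene and rounded, and 20165 genes passed filterByExpr (minimum count 10, minimum total 15). With TMM scaling, edgeR 4.0.16 in R 4.3.3 fitted 1 mean per group over the 10 libraries and gave quasi-likelihood tests. A call needed an adjusted p under 0.05 (Benjamini-Hochberg, all tested genes) and an absolute log2 fold change of 1 or more. Nothing says that replicates came from separate cultures or embryos, so p-values measure the spread between these libraries, which may be technical. The sum over copies is given because close copies share reads. Transcript windows and gene positions came from GENCODE M21, promoters from RefSeq (GRCm38.p6).

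The members and lists were chosen with earlier results of these data known. Named genes were all members, 13 fixed regulators and relatives, up to 4 called genes per list and comparison with the largest change, and the 6 genes most like the Zscan4 sum. The alternatives were DESeq2 1.42.0, limma 3.58.1 on log2(TPM + 1) and log2(TPM + 0.1), other filters, fits to the 2 groups compared, library-size scaling, a replicate block and leaving out each library. The fit was tested on simulated counts. Endogenous retroviral transcripts were not analysed here.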

Additional observations from a re-analysis of the deposited data

How the results depend on the processing

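Of 114 alternative values for the member sum, the ESC replicate ratio and the list counts, 103 stayed within 1.5 times a count or within the spread of a value. The 103 include the target counts of D6 over D3 and of D9 over D6, where no setting called any gene. As 27 of the 29 target genes were hardly read outside ESCs, those counts had little room to move. Most target counts of ESC over D9 are also among the 103, and they carry no weight for the reason given above. The ESC level of the Zscan4 sum, 136.9 CPM, was 148.5 CPM with library-size scaling and 47.5 on the TPM scale, and from 133.8 to 140.1 CPM with 1 ESC replicate left out. With the stricter filter of 10 CPM in 2 libraries only 1 target gene was left to test, so 1 was called between day 9 and ESCs (29 in the report) and 0 between MEF and day 3 (2 in the report). Limma on log2(TPM + 1), which shrinks changes of low genes by construction, called 17 target genes between day 9 and ESCs and 0 between MEF and day 3, and 3 regulators from day 3 to day 6 (5 in the report) and 2 from day 6 to day 9 (5 in the report). Limma on log2(TPM + 0.1) called 1 target gene between MEF and day 3, where leaving out replicates gave 1 to 2. DESeq2 called 3 regulators between MEF and day 3 (6 in the report). The cause of the last was not tested. Library-size scaling shifted the median change over all tested genes at day 3 against MEF from 0.08 to 0.285 (log2). The replicate block kept every list count, with 29 target genes and 12 regulators between day 9 and ESCs as without it. It ended the call of Zscan5b from day 6 to day 9. Same-numbered libraries had correlations of deviations from -0.0205 to 0.0222, so no pairing by number was seen. For the named genes, 395 of 435 alternative values kept their call, 40 missed the threshold and 0 reversed.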

Other observations

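Germ cell markers, which two-cell-like cells are not defined by, were also on in ESCs. All 6 on a list of germ cell markers were called higher in ESCs than at day 9 by edgeR, where 18.6% of tested genes were, but 4 of them passed the filter on low counts only through the ESC libraries. Their summed level was 124.8 and 125.7 CPM in ESCs and 0.5191 and 0.5555 CPM at day 9. Stra8, a gene of meiotic entry, was at 33.17 and 37.44 CPM in ESCs, Ddx4, a germ line RNA helicase, at 31.58 and 32.55 CPM, and Dazl, a germ line RNA-binding protein, at 30.96 and 29.4 CPM.

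Genes with an on and off pattern as strict as that of Zscan4 were few. Of 14697 genes at 1 CPM or more in both ESC libraries, 98 had at most 1 read in each of the 8 other libraries. These 98 included 7 members and 16 of the target genes. Zfp352 was the member left out, at under 1 CPM in ESCs. The bounds were chosen after the values were seen.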
